A study of Mus musculus with 240 samples.

Results

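Gonadal fat of lean male BTBR mice was profiled at 10 weeks (5 mice) and at 4 weeks of age (5 mice), which are 10 of the 240 arrays of the series. The arrays were chosen by their labels (tissue adipose, strain BTBR, lean, and age), with no measured value involved. Each array set the RNA of 1 mouse against a pool made from 20 samples of its own strain and tissue, and the labels of the BTBR fat arrays name that pool as one of BTBRob mice. The whole series covers islets, liver, gonadal fat, gastrocnemius, soleus and hypothalamus of B6 (C57BL/6) and BTBR males from in-house colonies, lean or ob, at both ages. An ob mouse has the ob mutation, which lies in Lep and takes away the satiety hormone leptin. Lean mice carry no further genotype label, and no treatment is named for any group. The 10wk animals are mice 26, 30, 31, 32 and 33 and the 4wk animals are mice 36, 37, 41, 42 and 45, and every series of values below follows that order. For comparison, the same age difference was taken in fat of lean B6 mice (5 at each age) and of BTBR ob mice (5 at each age).

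White fat stores triglyceride in large adipocytes, and the gonadal pad of the mouse grows through both new adipocytes and larger ones between weaning and adulthood. The pad also holds fibroblast-like progenitors that lay down collagen, blood vessels and resident macrophages, and a growing pad adds cells and matrix to keep pace with its adipocytes. Brown-type adipocytes, which burn fuel through the mitochondrial uncoupling protein UCP1, are a minor population of white pads. Gonadal fat of a male lies against the epididymis and testis, so that fragments of these organs can be carried along at dissection.

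Values are log2 ratios of mouse to pool, and an age difference is 10wk minus 4wk, in which the pool cancels. After ± stands the standard error (SE) that the fit gives for a difference, with n = 5 mice at each age. A gene rose, fell or changed where limma's adjusted p was under 0.05 over 19896 genes. A gene whose groups do not overlap had all 5 values of one age above all 5 of the other. No label states whether mouse or pool is on top of the ratio, so the directions given are the likely ones. Ratios of mouse over pool lie mostly below 0 at variable probes when the pool holds the mice measured, and among 12 sets of 1 strain and 1 tissue, the 200 probes varying most did so in 11. BTBR fat had 96.5% of them below 0, which assumes that its pool held the measured mice, and the exception was B6 hypothalamus with 44.5%. Of 45 pairs among the 10 arrays, 5 correlated below -0.3 over all probes, down to -0.475, and each of the 5 pairs holds mouse 33. Were the ratio the other way up, each sign below would turn, with 1962 genes higher and 1499 lower at 10 weeks. A ratio to a pool of the same tissue gives no level, so the adipose label could not be checked against absolute marker levels. The mean of 16 adipocyte identity genes lay between 0.08 and 0.34 in the 10wk mice and between 0.06 and 0.28 in the 4wk mice. The labels name no batch. The p-values rest on the spread between individual mice within groups, estimated jointly over the fat arrays of both strains, lean and ob. This spread is thus not that of the lean BTBR mice alone. All mice came from in-house colonies, so the p-values do not cover mice from elsewhere.

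Transcripts of testis and epididymis stood apart on 5 of the 10 arrays. The mean of 57 testis germ cell genes was -2.59, -2.02, 0.29, 0.68 and 2.36 in the 10wk mice, against -2.60, 1.37, -2.06, -0.91 and -2.31 in the 4wk mice. It was thus above 0 in 10wk mice 31, 32 and 33 and in 4wk mouse 37, and far below 0 in 5 of the other arrays, with mouse 42 between. On the 50 arrays of the other 5 tissues of these groups, the same mean ranged only between -0.136 and 0.131. Ddx4, the germ cell RNA helicase, was named for its high values in mice 33 and 37. It stood at -4.34, -3.89, 0.59, 0.76 and 3.22 in the 10wk mice, against -4.34, 2.31, -3.12, -0.33 and -3.44 in the 4wk mice. Genes of Sertoli and Leydig cells, the somatic cells of the testis, had their highest means where germ cell genes did, at 0.76 in mouse 33 and 0.67 in mouse 37. Epididymal genes marked a different pair, since the mean of 29 of them was 0.97 in mouse 32 and 0.38 in mouse 42, against -1.24 to -0.78 in the other 8 mice. Adam7, an epididymal surface protein, ran at -2.76, -2.56, -2.38, 2.05 and -2.69 in the 10wk mice, against -2.85, -2.21, -2.10, 3.12 and -2.96 in the 4wk mice. None of the 57 germ cell genes was called between the ages by limma with all 10 arrays (7 at an unadjusted p under 0.05), 3 were without mice 33 and 37, 24 without mouse 37 alone (a fit with 9.77% of all genes higher) and 15 without mouse 26 alone. With array weights, 46 were called. List counts below are given with all arrays, and the count without mice 33 and 37, or without all 5 of these mice (31, 32, 33, 37 and 42), is added where it moves by more than 1.5 times.

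**Figure D1:**
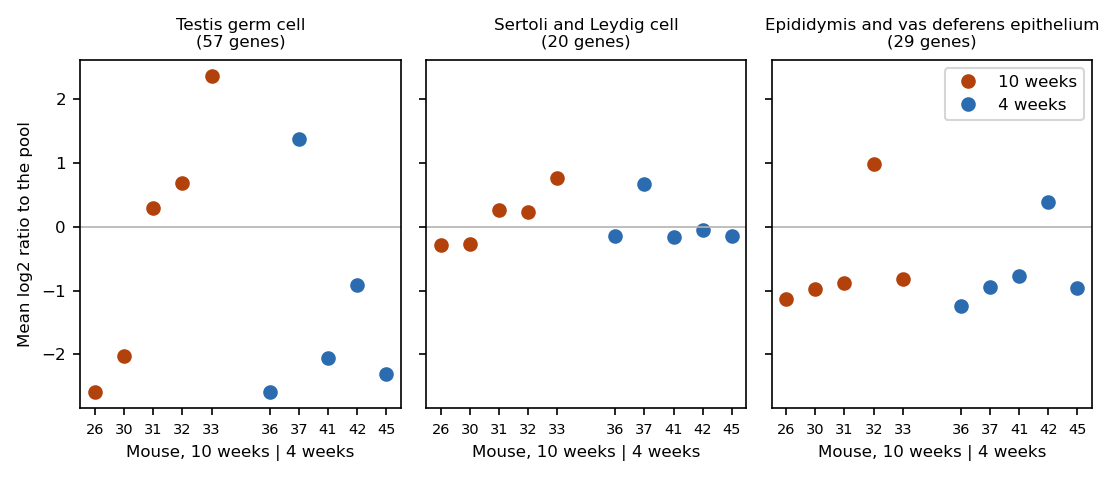
Mean log2 ratio to the pool over genes of testis germ cells, of Sertoli and Leydig cells and of epididymis and vas deferens epithelium, 1 point per mouse, with 10wk mice left of 4wk mice in each panel. Mice 33 and 37 are highest for both testis lists and mice 32 and 42 for the epididymal list.

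Between the ages, 3461 of 19896 genes changed (17.4%), of which 1499 (7.53%) were higher and 1962 (9.86%) lower at 10 weeks. The values of the ages did not overlap for 9.38% of all genes, with 3.54% higher and 5.84% lower. Leaving out mice 33 and 37 gave 3260 calls (16.4%), of which 7.87% of genes were higher and 8.51% lower, and 2775 genes were called in both fits with the same sign. The median difference over all genes was -0.008. At an unadjusted p under 0.05 there were 5842 genes. Without the 5 mice, 10.0% of genes were called. That fit keeps only mice 26 and 30 at 10 weeks and mice 36, 41 and 45 at 4 weeks. The genes Rprml, Timp4, Tyms, Mcm2, Dio2, Me1, Mogat1, Hmgcs1, Rbp4, Ccl9, Igf2 and Hbb-b1, given below as changed, did not pass there. With fewer mice a call can be lost with or without a smaller difference. The difference was no smaller for Rprml (2.18, against 2.07 with all mice), Me1 (-1.44, against -1.28), Dio2, Mogat1 and Hmgcs1. It was smaller for Tyms (-0.78, against -0.90), Mcm2 (-0.57, against -0.70), Ccl9 (0.74, against 0.86), Timp4, Rbp4 and Igf2. For Hbb-b1 it shrank most, to -0.425 from -1.20. Among the lists described here, collagen and matrix, mitosis, mitochondrial respiration and lipid synthesis had members that fell, while macrophage, antigen presentation and complement lists had members that rose. Because whole tissue was measured, fewer cells of a type and less RNA per cell cannot be told apart in any of these differences.

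**Figure D2:**
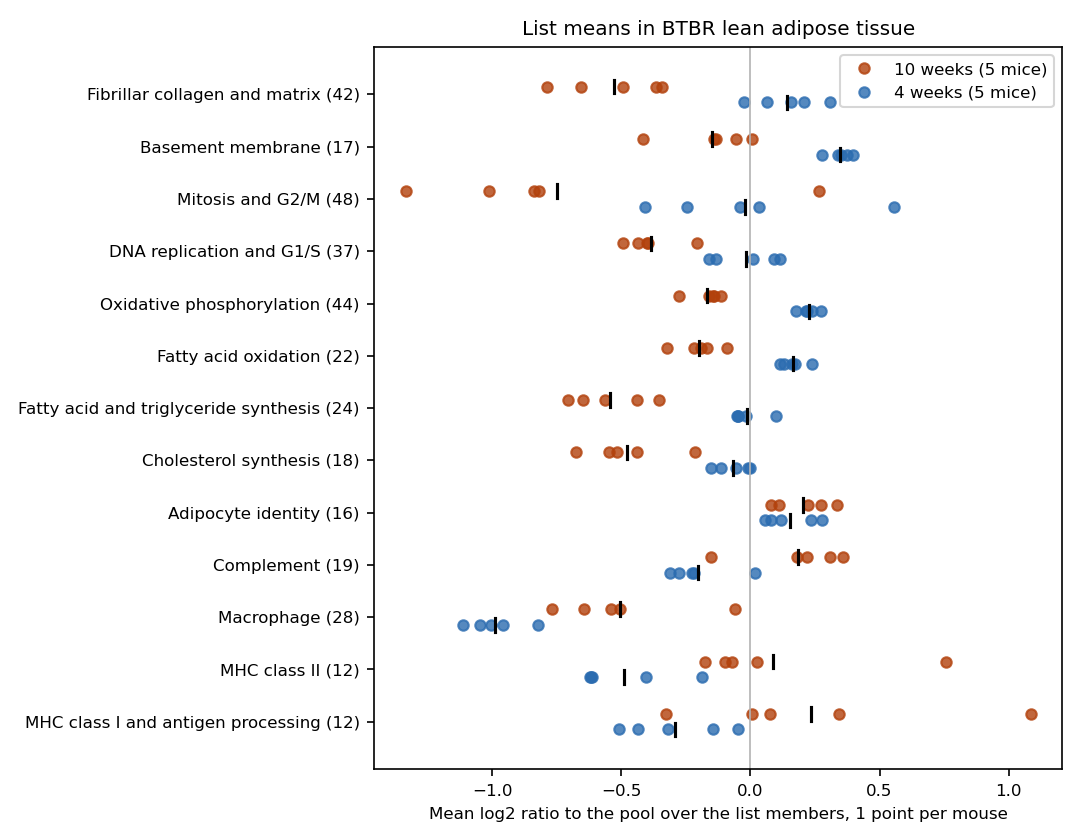
Mean log2 ratio to the pool over the members of each list (number of genes in brackets), 1 point per mouse, 10wk in orange above 4wk in blue, with a bar at each group mean. The matrix list lies at -0.79 to -0.34 in 10wk mice and -0.03 to 0.31 in 4wk mice, and mouse 26 stands at the right of both MHC lists.

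Most genes of the extracellular matrix were lower in 10wk than in 4wk fat of lean BTBR mice. Of 42 genes of fibrillar collagen and matrix, 31 fell and 3 rose, with a median difference of -0.642, and the ages did not overlap for 31. Without mice 33 and 37, 29 fell and 2 rose, and without the 5 mice 21 fell. The list mean was -0.49, -0.37, -0.34, -0.66 and -0.79 in the 10wk mice, against 0.31, -0.03, 0.16, 0.21 and 0.06 in the 4wk mice, and every 10wk mouse lay below every 4wk mouse.

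Col1a1, a chain of type I collagen and the main fibrillar protein of stroma, was at -1.45, -1.64, -1.33, -1.84 and -1.81 in the 10wk mice, against 0.55, 0.29, 0.62, 0.60 and 0.40 in the 4wk mice. The ages were fully separated with little spread inside either, and the difference was -2.11 ± 0.13 (limma, adjusted p = 1.6e-13), which is 4.3-fold lower at 10 weeks. Col3a1 encodes type III collagen, laid down with type I in young and repairing tissue. It stood at -0.98, -0.80, -0.73, -2.16 and -1.64 in the 10wk mice, against 2.27, 0.48, 1.85, 2.11 and 0.40 in the 4wk mice, with an age difference of -2.69 ± 0.39. Mice 37 and 45 were the lowest of the 4wk mice for it, yet still above all 10wk mice. Mfap2, a glycoprotein of elastic microfibrils, ran at -1.28, -1.37, -1.14, -1.54 and -1.46 in the 10wk mice, against 0.57, 0.36, 0.69, 0.97 and 0.96 in the 4wk mice, a difference of -2.07 ± 0.14. Eln, the elastin core of the same fibres, was at -1.02, -1.03, -0.62, -1.53 and -1.69 in the 10wk mice, against 1.27, 0.52, 0.85, 0.75 and 0.60 in the 4wk mice, a difference of -1.98 ± 0.18. Adam12, a metalloprotease of mesenchymal progenitors, gave -1.42, -1.65, -1.33, -1.65 and -1.89 in the 10wk mice, against 0.56, 0.57, 0.98, 1.06 and 0.58 in the 4wk mice. It fell by 2.34 on the log2 scale (SE 0.15, adjusted p = 4.7e-13), and no 10wk mouse came near a 4wk mouse. Col6a3 (type VI collagen) also fell, with a difference of -1.56 ± 0.12.

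A few matrix genes went the other way. Thbs1, the matricellular protein thrombospondin 1 that binds latent TGF-beta, was at 0.91, 0.99, 0.55, 0.21 and 0.51 in the 10wk mice, against -1.17, -1.22, -0.55, -0.71 and -0.93 in the 4wk mice. All 10wk mice were above 0 and all 4wk mice below it, and the difference was 1.55 ± 0.18 (adjusted p = 1.2e-07). Thbs2, its paralog, rose by 0.96 ± 0.15. Of 17 basement membrane genes, 13 fell and 1 rose, with a median of -0.526. Both chains of the main type IV collagen were among those that fell, Col4a1 by 1.01 and Col4a2 by 0.90 on the log2 scale, with the linker nidogen 2 (Nid2, -0.89 ± 0.12) and the laminin chain Lamc1 (-0.79 ± 0.08). Matrix remodelling enzymes and their inhibitors split, with 5 of 23 higher and 6 lower. The inhibitor Timp4 (1.18 ± 0.24), the protease Adamts1 (1.14 ± 0.24) and the macrophage elastase Mmp12 (1.11 ± 0.21, adjusted p = 0.16 after quantile normalization) rose, and the membrane-bound collagenase Mmp14 (-0.67 ± 0.11) and its relative Mmp15 (-0.73 ± 0.12) fell.

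**Figure D3:**
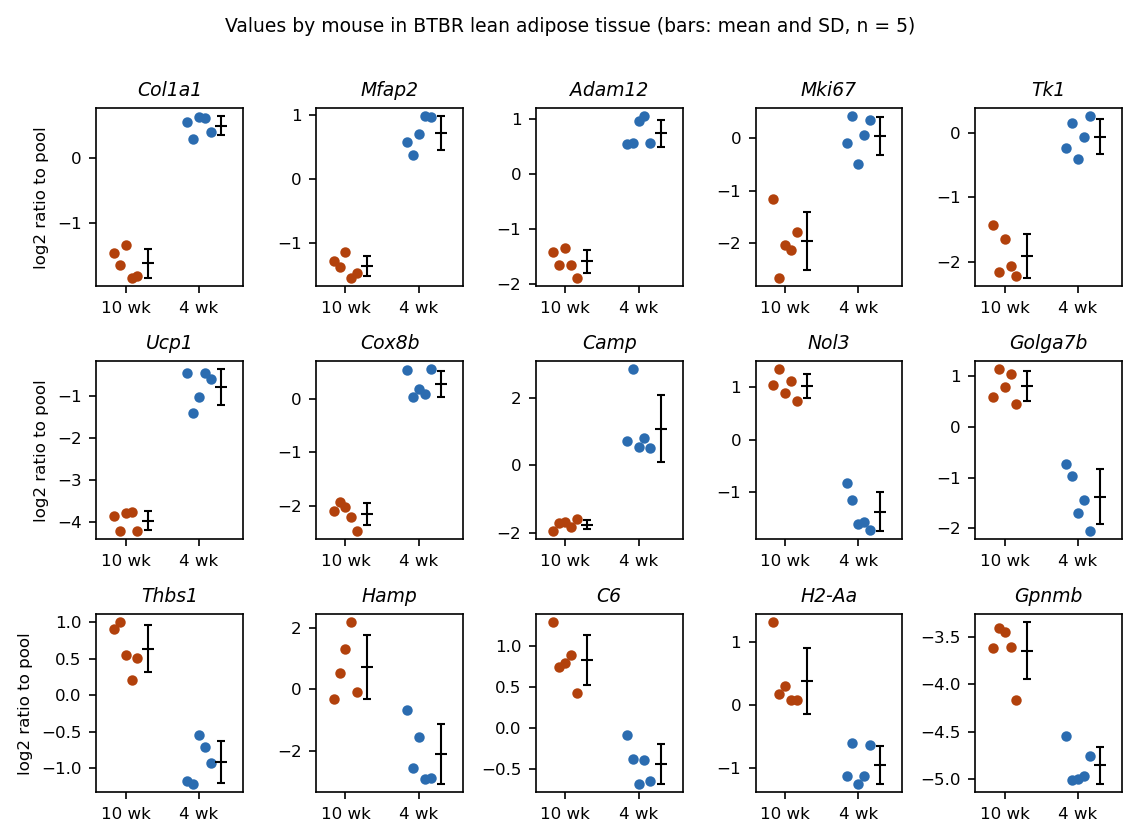
Log2 ratio to the pool of 15 genes in each lean BTBR mouse, 10wk left of 4wk in each panel, with the mean and SD of 5 mice as bars beside the points. Only genes whose ages do not overlap are drawn, among them Col1a1 with means of -1.61 at 10 weeks and 0.49 at 4 weeks.

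Genes of cell division were lower in 10wk fat, and how many passed the test depended on the arrays in the fit, most of all on mouse 33. Many genes that act at mitosis share a promoter element, the cell cycle genes homology region (CHR), which the MuvB complex binds, often together with CCAAT boxes bound by the factor NF-Y. In the RefSeq promoter table of mouse assembly GRCm38.p6 (250 bases before to 50 after a gene's start), 41 of 48 mitosis genes were found, with 44 promoters. The letters TTTGAA, or TTCAAA for the other strand, occurred in 72.7% of them and in 17.9% of 32851 promoters of all genes. CCAAT, or ATTGG for the other strand, occurred in 75.0% of them and in 37.4% of all, and both elements in 63.6% and 6.95%. Among 38 promoters of the DNA replication list the shares were 13.2% for TTTGAA and 57.9% for CCAAT. A match of these letters is a description and not a shown binding site, and the motifs can share an end letter where they adjoin. The promoters of 4 members described below are printed on the gene's own strand from 5′ to 3′, with each CHR and CCAAT match in capitals, because they show the elements both present and absent among genes that fell together. Mki67 (chr7:135716330-135716629, minus strand) has 2 CHR and 3 CCAAT matches, Kif22 (chr7:127042371-127042670, minus strand) has 2 and 2, Spc25 (chr2:69206164-69206463, minus strand) has 1 and 2, and Melk (chr4:44300667-44300966, plus strand) has none of either.
Mki67: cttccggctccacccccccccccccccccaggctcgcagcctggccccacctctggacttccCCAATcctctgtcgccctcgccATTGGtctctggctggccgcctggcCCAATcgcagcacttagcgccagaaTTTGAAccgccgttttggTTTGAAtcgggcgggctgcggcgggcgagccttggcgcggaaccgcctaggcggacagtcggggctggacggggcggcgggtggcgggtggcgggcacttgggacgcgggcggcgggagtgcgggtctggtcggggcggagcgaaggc
Kif22: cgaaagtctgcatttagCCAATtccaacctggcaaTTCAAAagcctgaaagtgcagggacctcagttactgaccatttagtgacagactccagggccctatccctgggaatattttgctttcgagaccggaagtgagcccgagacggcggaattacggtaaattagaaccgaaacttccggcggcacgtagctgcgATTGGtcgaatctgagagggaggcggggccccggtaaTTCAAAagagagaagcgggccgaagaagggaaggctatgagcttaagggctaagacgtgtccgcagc
Spc25: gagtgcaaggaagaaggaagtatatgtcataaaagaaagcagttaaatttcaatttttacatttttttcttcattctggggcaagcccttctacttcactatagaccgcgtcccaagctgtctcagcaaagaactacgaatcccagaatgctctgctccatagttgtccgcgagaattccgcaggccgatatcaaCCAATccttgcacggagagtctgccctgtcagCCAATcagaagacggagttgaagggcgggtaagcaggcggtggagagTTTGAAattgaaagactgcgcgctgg
Melk: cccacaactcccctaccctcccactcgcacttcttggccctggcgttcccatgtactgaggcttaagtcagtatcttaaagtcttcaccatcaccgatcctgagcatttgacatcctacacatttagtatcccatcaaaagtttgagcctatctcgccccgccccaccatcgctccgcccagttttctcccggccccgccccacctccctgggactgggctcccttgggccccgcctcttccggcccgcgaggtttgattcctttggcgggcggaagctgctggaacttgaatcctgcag

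Of 48 mitosis and G2/M genes, 22 fell and none rose, with a median difference of -0.738 and 14 members without overlap. Without mouse 33, 42 of the 48 fell, in a fit where 7.93% of all genes were called lower, and without mice 33 and 37 the count was 32. It was 16 without mouse 30 (2174 of 19896 genes lower) or with only the 10 arrays compared (969 lower). It was 18 without mouse 37 (11.6% of all genes lower) or without mice 31, 32, 33, 37 and 42 (3.94%). The list mean was -1.01, -1.34, -0.82, -0.84 and 0.27 in the 10wk mice, against -0.24, 0.56, -0.41, -0.04 and 0.03 in the 4wk mice. Mouse 33, which has the highest testis germ cell mean, stood above 0 with the mitosis list, while the other 10wk mice lay at -0.82 or lower. Mouse 37, which has the highest such mean among 4wk mice, was also the highest of its age for mitosis.

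Mki67, which coats mitotic chromosomes and marks cycling cells, was at -1.15, -2.66, -2.03, -2.13 and -1.79 in the 10wk mice, against -0.09, 0.41, -0.48, 0.06 and 0.34 in the 4wk mice. The ages did not overlap, and the difference was -2.002 ± 0.35 (limma, adjusted p = 0.00011), or 4.01-fold lower. Ccna2, the cyclin of S phase and mitotic entry, gave -1.36, -2.08, -1.58, -2.07 and -1.92 in the 10wk mice, against -0.09, 0.31, -0.38, 0.14 and 0.43 in the 4wk mice, a difference of -1.89 ± 0.32. For both, mouse 33 lay within the range of the other 10wk mice. Birc5, the survivin subunit of the chromosomal passenger complex, was different in this respect, at -1.45, -2.28, -1.45, -1.47 and 0.28 in the 10wk mice, against -0.34, 0.56, -0.67, -0.13 and 0.13 in the 4wk mice. Its value in mouse 33 lay inside the 4wk range, and the difference of -1.19 ± 0.36 (adjusted p = 0.018) was -1.58 without that mouse. Without mouse 30 its adjusted p was 0.071. Spc25, a subunit of the NDC80 kinetochore complex, ran at -1.59, -1.79, -1.69, -1.56 and -0.58 in the 10wk mice, against -0.37, 0.07, -0.57, -0.30 and -0.24 in the 4wk mice, again with mouse 33 the highest of its age but just below every 4wk mouse. The kinase Melk (-1.40 ± 0.28), the chromosome-arm kinesin Kif22 (-1.29 ± 0.28) and the mitotic regulator Pimreg (-2.01 ± 0.29), which is not on the list, fell as well.

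**Figure D4:**
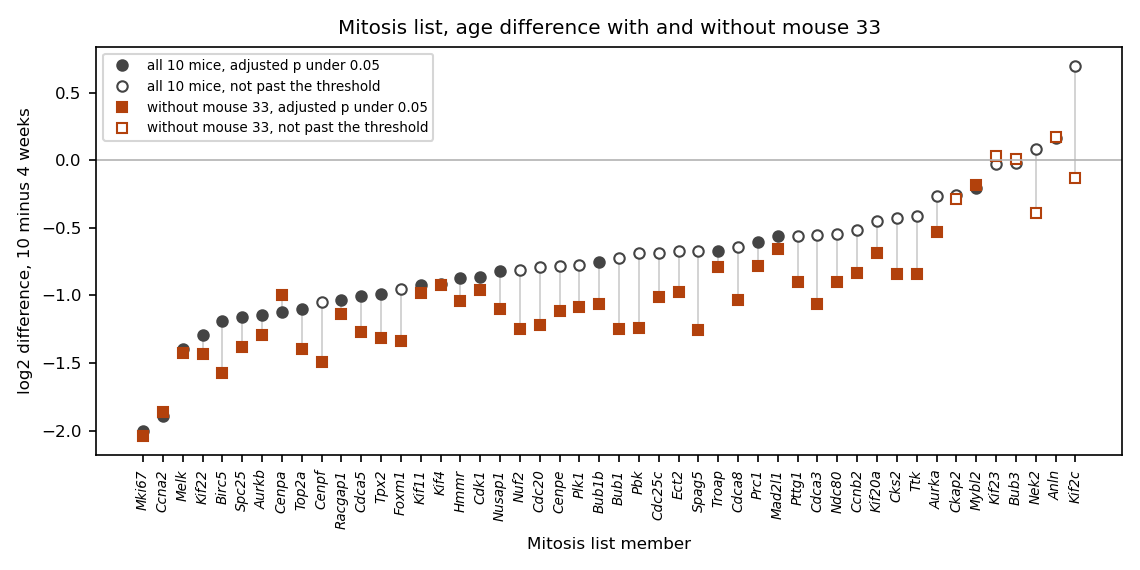
Age difference (10wk minus 4wk, log2) of each of the 48 mitosis and G2/M genes, with all 10 mice as circles and without mouse 33 as squares, filled where limma's adjusted p was under 0.05. Filled symbols number 22 with all mice and 42 without mouse 33, and the largest shifts between the fits are at genes such as Birc5 and Kif2c.

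DNA replication and G1/S genes followed with smaller differences. Of 37, 15 fell and none rose, with a median of -0.289, and 13 fell without mice 33 and 37. Without the 5 mice 7 fell. Leaving out 1 mouse at a time gave 8 to 17, with 9 without mouse 30, 32 or 42 and 8 without mouse 45. Tk1, the thymidine kinase of the salvage pathway that is made in S phase, was at -1.44, -2.16, -1.66, -2.07 and -2.23 in the 10wk mice, against -0.24, 0.14, -0.40, -0.07 and 0.25 in the 4wk mice. Its ages were more than 1 log2 unit apart at their nearest, and the difference was -1.85 ± 0.30 (adjusted p = 3.4e-05). Uhrf1, which copies DNA methylation to new strands, had a difference of -0.94 ± 0.28 (adjusted p = 0.055 without mouse 30), and Tyms, the thymidylate synthase, one of -0.90 ± 0.17. Cyclin E1 (Ccne1, -0.74 ± 0.09) and the helicase subunit Mcm2 (-0.70 ± 0.17) fell too. The ribonucleotide reductase subunit Rrm2 fell by 0.70 as the mean of its probes, which disagreed, with the lowest at -1.38 and the highest at -0.02.

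Mitochondrial genes were lower at 10 weeks across the whole respiratory chain, and the largest difference of a thermogenic gene was that of Ucp1. Of 44 oxidative phosphorylation genes, 38 fell and none rose, all 44 differences were below 0, and the ages did not overlap for 35. Their median was small, at -0.379. Without mice 33 and 37, 36 fell, and without all 5 mice carrying testis or epididymal transcripts 24 fell, in a fit with 3.94% of all genes lower and 6.11% higher. Averaged over the list, the values were -0.14, -0.16, -0.14, -0.12 and -0.28 in the 10wk mice, against 0.27, 0.18, 0.22, 0.24 and 0.22 in the 4wk mice, so each age held together closely.

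Cycs, the electron carrier cytochrome c, was at -0.55, -0.69, -0.67, -0.47 and -0.70 in the 10wk mice, against 0.12, 0.05, 0.16, 0.23 and 0.00 in the 4wk mice, a difference of -0.73 ± 0.11. Ndufa1, a subunit of complex I, gave -0.03, -0.34, -0.11, -0.20 and -0.54 in the 10wk mice, against 0.54, 0.26, 0.41, 0.57 and 0.33 in the 4wk mice, a difference of -0.67 ± 0.08. Both separated the ages completely, although mouse 33 was the lowest 10wk mouse for each. The complex IV subunit Cox7b (-0.77 ± 0.11), the complex III subunit Cyc1 (-0.68 ± 0.10) and the ATP synthase subunits Atp5o (-0.63 ± 0.09) and Atp5g3 (-0.61 ± 0.09) fell by similar amounts. Fatty acid oxidation went with them, as 15 of 22 genes fell and none rose, with a median of -0.350. Without mice 33 and 37, 12 fell, and without all 5 mice 7 did. Its falling members include Cpt2, which hands long-chain fatty acids to the matrix (-0.70 ± 0.11), the acyl-CoA dehydrogenases Acadvl (-0.69 ± 0.11) and Acadl (-0.68 ± 0.13), and Hadha of the trifunctional protein (-0.66 ± 0.10).

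Ucp1, the uncoupling protein that defines brown-type adipocytes, was at -3.86, -4.20, -3.79, -3.76 and -4.22 in the 10wk mice, against -0.47, -1.42, -1.04, -0.45 and -0.59 in the 4wk mice. All 10wk mice lay near -4, more than 2 log2 units below the lowest 4wk mouse, and the difference was -3.17 ± 0.71 (limma, adjusted p = 0.0015), or 9.02-fold lower. The SE rests on a spread estimated over all 40 fat arrays, and without the 5 mice the adjusted p was 0.051. Cox8b, a complex IV subunit of brown fat and muscle, ran at -2.10, -1.93, -2.03, -2.22 and -2.48 in the 10wk mice, against 0.53, 0.03, 0.18, 0.09 and 0.54 in the 4wk mice, a difference of -2.43 ± 0.40 (adjusted p = 4.1e-05). Cox7a1, another isoform of these tissues, gave -1.64, -1.35, -1.55, -1.38 and -1.73 in the 10wk mice, against 0.34, -0.10, -0.06, 0.25 and 0.19 in the 4wk mice, a difference of -1.66 ± 0.22. Both were lower in each 10wk mouse than in any 4wk mouse. Of 22 thermogenic genes, 8 fell and none rose, and the median was only -0.109. Without the 5 mice 5 of them fell. Dio2, which activates thyroid hormone in brown fat (-1.15 ± 0.33), the brown fat channel Otop1 (-1.36 ± 0.26) and the muscle-type carnitine transferase Cpt1b (-0.72 ± 0.25) were among them. For Cpt1b, mouse 33 stood at 0.45, inside the 4wk range, and the call was lost without mouse 26, 30, 31, 32, 36, 37 or 45, with adjusted p of 0.056 to 0.12. Muscle carries some of the same isoforms. Of 16 skeletal muscle genes, 2 fell with all mice, beside 9.86% of all genes lower. The count was 0 without mouse 33, without mouse 36, without mice 33 and 37 or without the 5 mice. It was 3 without mouse 37 (11.6% of all genes lower) and 4 with array weights (3187 of 19896 genes lower). A muscle source was not tested.

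Genes that build fatty acids and triglyceride were lower in 10wk mice. Of 24, 13 fell and 1 rose, with a median of -0.496 and 13 without overlap, and 10 fell without mice 33 and 37. Without all 5 mice 6 fell. The list mean was -0.71, -0.56, -0.44, -0.36 and -0.65 in the 10wk mice, against -0.02, -0.05, -0.05, -0.05 and 0.10 in the 4wk mice, and every 10wk mouse was lower than every 4wk mouse.

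Slc25a1, the carrier that exports citrate from mitochondria for lipid synthesis, was at -1.58, -1.36, -1.22, -1.24 and -1.56 in the 10wk mice, against 0.01, 0.26, -0.03, -0.11 and -0.21 in the 4wk mice. The gap between the ages was wide against the spread within them, and the difference was -1.37 ± 0.20 (adjusted p = 8e-06). Fasn, the fatty acid synthase, ran at -1.03, -0.43, -0.62, -0.03 and -0.67 in the 10wk mice, against 0.59, 0.76, 0.44, 0.21 and 0.63 in the 4wk mice, a difference of -1.08 ± 0.28 (adjusted p = 0.0055). All 10wk values were negative and all 4wk values positive. Elovl6, which extends palmitate, gave -2.70, -2.23, -2.14, -1.59 and -2.41 in the 10wk mice, against -0.77, -0.80, -1.04, -1.15 and -0.41 in the 4wk mice. Its difference of -1.38 ± 0.44 passed with all mice (adjusted p = 0.026) but not without mice 33 and 37 (adjusted p = 0.073) or without mouse 26 (adjusted p = 0.054), mouse 33 (0.051), mouse 45 (0.069) or the 5 mice (0.11). The suppliers of NADPH and acetyl-CoA moved likewise, Me1 by -1.28 ± 0.31 and Acly by -1.15 ± 0.35, and Acly did not pass without mice 33 and 37 (adjusted p = 0.063) or without the 5 mice (0.096). Gpd1, which makes the glycerol backbone (-0.95 ± 0.19), and the lipogenic factor Thrsp (-0.86 ± 0.20) fell, and the monoacylglycerol acyltransferase Mogat1 rose (0.55 ± 0.15, adjusted p = 0.16 after quantile normalization).

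Cholesterol synthesis gave fewer calls, with 6 of 18 genes lower and none higher, a median of -0.469 and 5 lower without mice 33 and 37. Cyp51, the lanosterol demethylase, was at -1.39, -1.49, -0.83, -0.87 and -0.76 in the 10wk mice, against -0.02, -0.15, 0.21, 0.19 and 0.02 in the 4wk mice. The 10wk mice were all below the 4wk mice, with a difference of -1.12 ± 0.23 (adjusted p = 0.00055). The sterol reductase Tm7sf2 (-1.05 ± 0.25), the early enzyme Hmgcs1 (-0.61 ± 0.15) and the cholesterol carrier Stard4 (-0.66 ± 0.14) fell too.

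Genes that define the adipocyte itself did not pass the test with all mice. None of 16 adipocyte identity genes was called by limma with all mice, with 2 at an unadjusted p under 0.05. Without mice 33 and 37 none was called either, with 4 at that unadjusted p. With array weights, or without mouse 26, 30 or 37 alone, 1 of the 16 was called. The median difference of the 16 with all mice was 0.032. Adipoq, the hormone adiponectin, was at 0.61, 0.71, 0.44, 0.32 and 0.07 in the 10wk mice, against 0.25, 0.24, 0.22, 0.26 and 0.04 in the 4wk mice, a difference of 0.23 ± 0.13 (adjusted p = 0.26). The lipid droplet coat Plin1 differed by 0.23 ± 0.11, the fatty acid binder Fabp4 by 0.02 ± 0.10 and the adipogenic receptor Pparg by -0.16 ± 0.11, with adjusted p of 0.18, 0.94 and 0.34. Lep, leptin, gave -1.26, -1.45, -1.99, -1.66 and -1.36 in the 10wk mice, against -2.38, -2.18, -1.76, -1.78 and -1.88 in the 4wk mice, and its difference of 0.45 ± 0.23 did not pass (adjusted p = 0.19). The ages overlapped for both hormones. Cfd, the protease adipsin, had 0.91, 0.72, 0.86, 0.36 and 0.44 in the 10wk mice, against 0.37, 2.03, 0.94, 0.37 and 0.64 in the 4wk mice, where mouse 37 alone was near 2. Its difference of -0.21 ± 0.24 (adjusted p = 0.61) was 0.08 without mouse 37. Of 17 secreted adipokines, 4 rose and 1 fell, and 2 rose without the 5 mice. Itln1, the lectin omentin that mesothelial cells also make, had a difference of 1.56 ± 0.47 with mouse 33 the highest at 2.67. It was 0.96 without that mouse (adjusted p = 0.1) and 0.59 without the 5 mice (0.27), and it did not pass without mouse 36, 42 or 45 either (0.055 to 0.071). The retinol carrier Rbp4 (0.64 ± 0.18) and chemerin (Rarres2, 0.63 ± 0.10) rose. Apln, the vascular peptide apelin, was the one that fell, by 1.70 on the log2 scale.

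The apelin receptor fell with its ligand. Aplnr, which sits on endothelial cells of growing vessels, was at -0.92, -0.90, -1.77, -1.12 and -1.89 in the 10wk mice, against 0.59, 1.21, 0.91, 0.79 and 0.95 in the 4wk mice. The groups were well apart, with a difference of -2.21 ± 0.27 (adjusted p = 5.1e-07). Of 21 endothelial genes, 5 fell and none rose with all mice, against 3 lower and 1 higher both without mice 33 and 37 and without mouse 33 alone, and 2 lower without the 5 mice. Erythroid genes gave 4 of 9 lower, and 2 without mice 33 and 37. The anion exchanger Slc4a1 of red cells stood at -0.55, -0.70, -1.70, -1.59 and -1.59 in the 10wk mice, against 0.33, 0.85, 0.29, 0.44 and 0.54 in the 4wk mice, a difference of -1.72 ± 0.40, and Hbb-b1 fell by 1.20 on the log2 scale, which probes of near-identical globin copies may share. Without the 5 mice none of the 9 passed by limma, also unadjusted, with an adjusted p for Slc4a1 of 0.33. The difference of Slc4a1 in that fit was -1.01.

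The largest rise among the named genes was that of Hamp, hepcidin, the peptide that lowers iron export from cells and is known mainly from liver. Its values were -0.33, 0.54, 1.33, 2.19 and -0.09 in the 10wk mice, against -0.67, -2.58, -1.55, -2.92 and -2.89 in the 4wk mice. The ages did not overlap, but the 10wk mice spread widely. The difference was 2.85 ± 0.59 (limma, adjusted p = 0.00075). Without the 5 mice it was 1.81 and did not pass (adjusted p = 0.19). Steadier was Nol3, an inhibitor of cell death, at 1.03, 1.33, 0.89, 1.11 and 0.74 in the 10wk mice, against -0.83, -1.14, -1.60, -1.56 and -1.71 in the 4wk mice. It rose by 2.39 ± 0.20 (adjusted p = 2.2e-10), or 5.24-fold. Golga7b, a partner of palmitoyl transferases, followed at 0.60, 1.14, 0.80, 1.06 and 0.45 in the 10wk mice, against -0.72, -0.96, -1.69, -1.44 and -2.06 in the 4wk mice, a rise of 2.18 ± 0.21. Inmt, an indolethylamine methyltransferase, was at 1.04, 0.79, 0.23, 0.88 and 0.99 in the 10wk mice, against -1.80, -1.43, -0.88, -1.05 and -0.43 in the 4wk mice, a rise of 1.90 ± 0.33. For these 3 genes all 10wk values were positive and all 4wk values negative. Further rises were those of the kinase Ripk4 (2.35 ± 0.43), the reprimo-like gene Rprml (2.07 ± 0.55), the matrix protein Crtac1 (1.81 ± 0.19), the endocytic recycling protein Ehd3 (1.71 ± 0.19), the interleukin 7 receptor Il7r (1.63 ± 0.24), the serine protease Htra4 (1.45 ± 0.22) and Grb14 (1.49 ± 0.20), an adaptor that blunts insulin receptor signalling.

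Among the largest falls was Camp, the antimicrobial cathelicidin of neutrophils, at -1.95, -1.72, -1.69, -1.82 and -1.59 in the 10wk mice, against 0.73, 2.84, 0.54, 0.80 and 0.51 in the 4wk mice. Mouse 37 stood 2 log2 units above the other 4wk mice, yet these too were above every 10wk mouse, and the difference was -2.84 ± 0.33 (adjusted p = 2.4e-07). Ngp, a granule protein of immature neutrophils, was also high in mouse 37, at -2.29, -2.07, -1.39, -2.01 and -2.32 in the 10wk mice, against -0.11, 3.08, -1.14, -1.56 and -1.64 in the 4wk mice. Its ages overlapped, and the difference of -1.74 ± 0.61 (adjusted p = 0.045) became -0.82 without mice 33 and 37 (adjusted p = 0.31), and it did not pass without mouse 26, 30, 32, 33, 36 or 37 alone (0.065 to 0.18). Of 21 granulocyte and mast cell genes 5 fell and 2 rose, against 3 and 2 without mice 33 and 37 and 3 and 1 without the 5 mice. Without mouse 41, 6 fell and 4 rose, and with the testis score as a covariate 6 fell and 5 rose. Itm2a, a membrane protein of mesenchymal cells, fell by 2.17 on the log2 scale. Of 22 imprinted genes of juvenile growth, 6 fell and 2 rose (3 and 2 without the 5 mice), and Igf2, the fetal growth factor, had a difference of -0.45 ± 0.11. The imprinted long noncoding RNA Meg3 fell by 0.54 as the mean of 5 probes that ranged between -0.97 and -0.11. Ldha, lactate dehydrogenase of glycolysis, fell by 0.66.

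Macrophage and antigen presentation genes were higher at 10 weeks, with mouse 26 the highest for several of them. Of 28 macrophage genes, 8 rose and none fell, with a median of 0.371, against a background of 7.53% of genes higher. Their mean stood at -0.06, -0.51, -0.54, -0.65 and -0.77 in the 10wk mice, against -0.82, -1.01, -1.11, -1.05 and -0.96 in the 4wk mice. Each 10wk mouse lay above each 4wk mouse, and mouse 26 stood highest. The count was 8 without mice 33 and 37, 13 without mouse 33 (background 8.79%), 5 without mouse 26 (background 8.54%) and 5 without mouse 41. It was 4 after quantile normalization, 12 with array weights and 17 with the testis score, or both organ scores, as covariates. Gpnmb, a glycoprotein of lipid-laden macrophages, was at -3.61, -3.41, -3.45, -3.60 and -4.16 in the 10wk mice, against -4.55, -5.00, -5.00, -4.96 and -4.76 in the 4wk mice, far below the pool at both ages. It rose by 1.21 ± 0.22 (adjusted p = 0.00012). Mpeg1, a pore-forming protein of phagocytes, gave -0.55, -1.69, -1.55, -1.88 and -2.11 in the 10wk mice, against -2.52, -2.58, -2.85, -2.96 and -2.83 in the 4wk mice, a rise of 1.19 ± 0.22. Neither gene overlapped between the ages, but after quantile normalization their adjusted p were 0.085 and 0.2. The integrin Itgax (1.14 ± 0.17, adjusted p = 0.14 after quantile normalization), Retnla of alternatively activated macrophages (1.01 ± 0.26, whose family has near-identical copies) and the phosphatidylserine receptor Timd4 (0.86 ± 0.24) rose, and Timd4 was at an adjusted p of 0.05 without mouse 26.

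Of 12 MHC class II genes, 6 rose and none fell, with a median of 0.503. As a mean they were at 0.76, -0.10, 0.03, -0.07 and -0.17 in the 10wk mice, against -0.62, -0.41, -0.62, -0.61 and -0.19 in the 4wk mice. No 10wk mouse lay below a 4wk mouse, though mice 33 and 45 were close. Without mouse 26, 5 of them still rose, and without mice 33 and 37, 7 did. H2-Aa, the alpha chain of the class II molecule that shows peptides to T helper cells, was at 1.31, 0.17, 0.30, 0.08 and 0.08 in the 10wk mice, against -1.13, -0.61, -1.25, -1.12 and -0.63 in the 4wk mice. Mouse 26 lay 1 log2 unit above the other 10wk mice, which were themselves above all 4wk mice, and the rise was 1.34 ± 0.25 (adjusted p = 0.00023). Its partners H2-Eb1 (1.16 ± 0.22) and H2-Ab1 (0.98 ± 0.21) rose as well.

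The count of MHC class I and antigen processing genes moved with several single mice. Of 12, 8 rose with all mice, 3 without mouse 26, 4 without mouse 41 and 5 without mouse 31, 36, 37 or 42. It was 10 higher and 1 lower without the 5 mice, a fit whose 10wk mice are 26 and 30 alone. None passed in a limma fit of only the 10 BTBR lean arrays. There 6 had an unadjusted p under 0.05, and 1626 of all genes were called. The list mean was 1.09, 0.01, 0.34, 0.08 and -0.33 in the 10wk mice, against -0.14, -0.44, -0.32, -0.51 and -0.05 in the 4wk mice, and the ages overlapped. Psmb9, an interferon-induced subunit of the immunoproteasome, was at 1.97, 0.13, 0.29, -0.01 and -0.23 in the 10wk mice, against -0.38, -0.39, -0.54, -0.52 and 0.08 in the 4wk mice. It rose by 0.78 ± 0.25 with all mice (adjusted p = 0.03) and had an adjusted p of 0.12 without mouse 26 and of 0.055 to 0.067 without mouse 36, 41 or 42. H2-Q7 (1.18 ± 0.31) and H2-M3 (0.85 ± 0.20) also rose, and class I genes are alike enough that probes may share signal. The interferon response list had 1 of 27 genes higher and 1 lower, and its mean was 1.10 in mouse 26, against -0.68 to -0.16 in the other 10wk mice. In T and NK cell genes mouse 26 had a mean of 0.67 and in B and plasma cell genes one of 0.53, and 1 of 21 and none of 14 members were called (1 of the 14 at an unadjusted p under 0.05).

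Complement genes gave 5 of 19 higher and none lower, with a median of 0.378, against 7.53% of all genes higher. Without mouse 33 the count was 8 (background 8.79%). With the testis covariate 10 rose, in a fit with 2113 of 19896 genes higher. With array weights 12 rose, in a fit with 2779 higher. C6, a component of the membrane attack complex, was at 1.28, 0.74, 0.79, 0.89 and 0.42 in the 10wk mice, against -0.09, -0.38, -0.68, -0.39 and -0.65 in the 4wk mice. The ages did not overlap, and the rise was 1.26 ± 0.26 (adjusted p = 0.00052). C4a rose by 1.30 ± 0.34, a value its near-identical copy C4b may share. Of 31 chemokines and cytokines, 4 rose, among them Ccl6 (1.01 ± 0.20), Ccl9 (0.86 ± 0.19) and the eosinophil attractant Ccl11 (0.66 ± 0.14). Immediate early genes gave 5 of 27 higher (3 without mice 33 and 37 or without mouse 30, 31, 33 or 36, and 2 without mouse 45), including the transcription factor Klf4 (1.02 ± 0.18), and heat shock genes 4 of 26 (2 without the 5 mice), including the chaperone Hspb1 (0.75 ± 0.13). Over all genes 7.53% were higher with all mice, 7.87% without mice 33 and 37 and 6.11% without the 5 mice. The 2 of 26 heat shock genes lie near that last share. For pathways of growth control the counts went both ways, beside 9.86% of all genes lower with all mice, 8.51% without mice 33 and 37 and 3.94% without the 5 mice. Insulin signalling had 2 of 21 higher and 7 lower, but only 2 lower without mice 33 and 37, 4 lower without mouse 31, 33 or 41 and 1 lower without the 5 mice. The growth hormone and IGF axis had 1 of 21 higher and 5 lower, against 3 higher and 4 lower without mouse 33 and 2 higher and 3 lower without the 5 mice. Wnt pathway genes gave 2 of 30 higher and 6 lower, of which 3 were lower without mouse 45 and 2 without the 5 mice. TGF-beta and BMP genes had 6 of 35 higher and 3 lower, against 4 and 5 without mouse 30 and 5 and 1 without the 5 mice. Preadipocyte and stromal progenitor genes gave 5 of 24 in each direction, with 2 lower without the 5 mice. The 2 of 30 Wnt genes higher and the 3 of 35 TGF-beta and BMP genes lower lie near the shares of all genes. With only the 10 BTBR lean arrays in the fit, 657 of 19896 genes were higher and 969 lower. There TGF-beta and BMP genes had 1 higher and 1 lower, Wnt genes 1 and 2, and preadipocyte genes 1 and 4. Insulin signalling had 1 and 3 and the growth hormone and IGF axis 0 and 4.

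In lean B6 fat the same age difference called 3603 genes (18.1%), with 8.61% higher and 9.50% lower. B6 arrays also varied in organ transcripts, as ratios to the B6 pool. Germ cell means were -1.07 to 1.93 in 10wk and -1.37 to -0.32 in 4wk lean B6 mice. Epididymal means were -2.40 to 0.94 and -2.55 to -0.46. Of the genes called in both lean strains, 1982 in all, 1978 went the same way, which is 57.15% of the BTBR and 54.9% of the B6 calls. Counts by list stood side by side as follows. Matrix genes had 31 lower and 3 higher in BTBR, against 22 lower and 4 higher in B6, and mitosis genes 22 lower in each strain. Oxidative phosphorylation genes had 38 lower in BTBR and 40 in B6, and macrophage genes 8 higher in BTBR and 15 in B6. Other lists stood further apart. MHC class I genes had 8 higher in BTBR, against 0 higher and 1 lower in B6. Lower were 4 erythroid genes in BTBR and 0 in B6, 8 and 3 thermogenic genes, and 6 and 15 cholesterol synthesis genes. Higher were 4 chemokine and cytokine genes in BTBR and 16 in B6, and 0 and 7 B and plasma cell genes. No member of these further lists passed the direct strain test that follows. A direct test of the strain difference in age effect called 30 of 19896 genes (0.151%), 21 (0.106%) more positive and 9 (0.0452%) more negative in BTBR. At an unadjusted p under 0.05 it gave 1393. With only the groups compared in the limma fit the count was 0, with 807 at an unadjusted p under 0.05.

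Sfrp5, a secreted inhibitor of Wnt signals made by adipocytes, was one of the genes that differed. It stood at 0.11, 0.64, -0.29, 0.05 and -0.22 in the 10wk mice, against -1.05, -1.01, -0.82, -0.94 and -1.12 in the 4wk mice in BTBR. It rose there by 1.04 ± 0.12, against -0.04 in B6 (adjusted p = 0.86), and the difference of the effects was 1.09 (adjusted p = 0.005). Of the 21 more positive genes, 9 encode histone H2B, with differences of 0.71 to 0.77. These genes are near-identical copies and are not independent. H2bc3 was at -0.30, 0.16, -0.23, -0.14 and -0.33 in the 10wk mice, against -0.77, -0.88, -1.17, -0.60 and -1.19 in the 4wk mice, with a rise of 0.76 ± 0.11 in BTBR, against -0.01 in B6, and a difference of 0.77. H2bc9 had one of 0.76. Thbs2 (1.13), the small heat shock protein Hspb7 (1.10) and the class I gene H2-Bl (0.90) were also more positive in BTBR. Car1, carbonic anhydrase of red cells (-1.25), the adipocyte membrane protein Tmem120a (-0.81) and Tmc6 (-0.55) were more negative. The age difference of Ucp1 in B6 was 0.85 (adjusted p = 0.46), and the strain difference of -4.03 did not pass (adjusted p = 0.11).

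In BTBR ob fat the age difference was much broader, with 8058 genes called (40.5%), 20.1% higher and 20.4% lower. The test of lean against ob within BTBR called 4130 genes (20.8%). Of all genes, 9.32% were more positive and 11.4% more negative in lean mice. That test called 4157 genes without mice 33 and 37 and 4860 with the testis score as a covariate. Germ cell means were -2.52 to -1.40 in 10wk and -2.24 to -1.18 in 4wk ob mice. Among BTBR fat arrays, only lean ones had a germ cell mean above 0. Lean and ob mice were measured against the same pool, which cancels within each age difference.

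**Figure D5:**
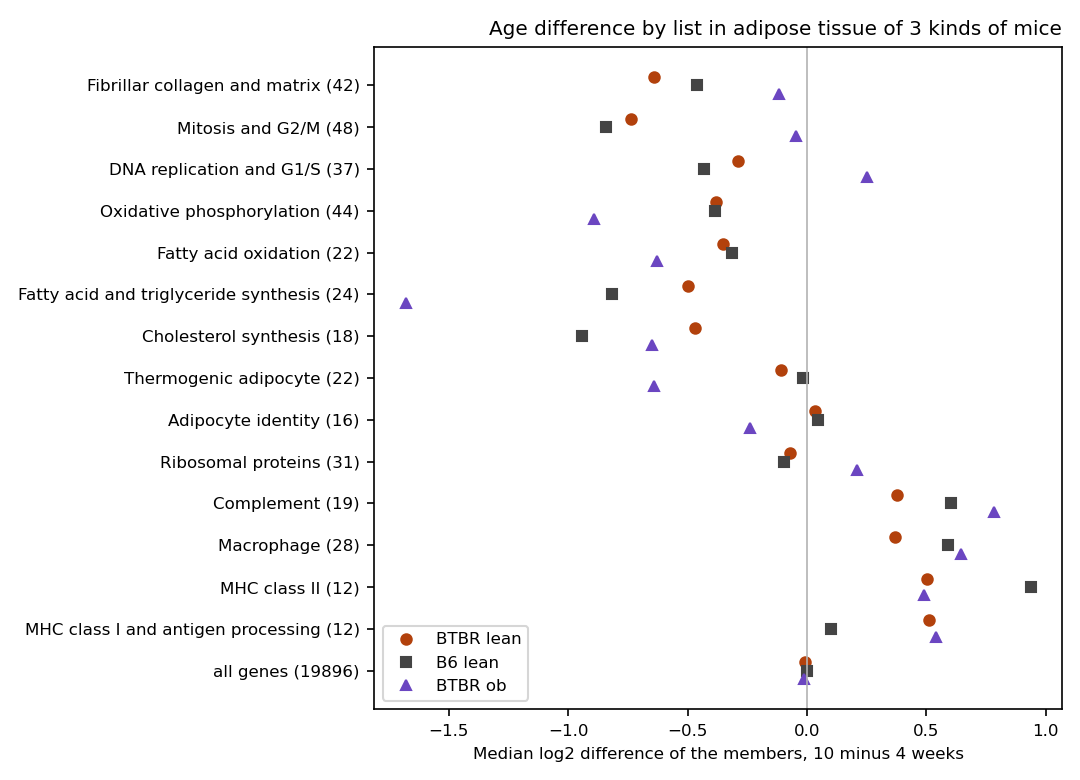
Median age difference (10wk minus 4wk, log2) over the members of each list in fat of BTBR lean, B6 lean and BTBR ob mice, with all 19896 genes at the bottom. Matrix, mitosis and DNA replication lists are lower in lean than in ob BTBR mice, and lipid synthesis and oxidative phosphorylation lists lie at -0.496 and -0.379 in lean, against -1.681 and -0.890 in ob mice.

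Matrix genes fell with age in lean BTBR mice and much less in ob mice. In the test of that difference, 28 of 42 were more negative in lean mice and 3 more positive. Col1a1 had an age difference of -2.11 in lean and -0.34 in ob mice, a difference of -1.77 (adjusted p = 1.7e-08). Mfap2 had -2.07 in lean and -0.31 in ob mice, where it did not pass (adjusted p = 0.074), a difference of -1.76. Proliferation genes showed the same order. Mki67 had -2.002 in lean and 0.02 in ob mice (adjusted p = 0.97), a difference of -2.02, and Tk1 had -1.85 and 0.38, a difference of -2.22. Of the mitosis genes 10 of 48, and of the DNA replication genes 19 of 37, were more negative in lean mice by this test. In ob mice 12 DNA replication genes rose and 2 fell.

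Metabolic genes had the reverse order, with larger falls in ob mice. Of 44 oxidative phosphorylation genes 39 had a smaller fall in lean mice by the test, and of 24 lipid synthesis genes 19 were more positive and 1 more negative. Fasn differed by -1.08 in lean and -3.15 in ob mice, a difference of 2.07. Elovl6 had the largest such difference among named genes, with -1.38 in lean and -4.82 in ob mice, a difference of 3.44 (adjusted p = 0.00011). Acly (2.44), Thrsp (2.55) and Mogat1 (2.47) differed in the same direction, and so did Cox8b (1.70) and Cycs (0.80). Adipocyte identity genes, none of which passed in lean mice with all arrays, fell for 7 of 16 in ob mice, and 7 of them differed by the test.

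Macrophage genes rose less in lean than in ob mice, with 12 of 28 more negative in lean mice by the test and 1 more positive. Gpnmb rose by 1.21 in lean and by 3.35 in ob mice, a difference of -2.15, and Mmp12 differed by -2.07. C6 rose by 1.26 in lean mice, against -1.97 in ob mice, where it fell, so that the difference was 3.23 (adjusted p = 5.8e-08). Rprml, which rose in lean mice, had a difference of 3.27. Among the most negative differences were those of the GABA receptor subunit Gabrr2 (-2.43), the serotonin receptor Htr2b (-2.24) and the DNA methyltransferase Dnmt3a (-2.05). Ribosomal protein genes gave 5 of 31 lower in lean mice (1 without mouse 33 or without the 5 mice, 2 without mouse 42, 3 without mouse 45) and 15 higher in ob mice, and 16 differed by the test.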

How the data were processed

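Per the labels, total RNA was taken with Trizol and an RNeasy column and amplified to cRNA in 1 RT-IVT round (reverse transcription, then transcription in vitro). It was labelled with Cy3 for one channel and Cy5 for the other on every array. The deposited values are log10 ratios between 1 mouse and its pool, a unit read from the values, which are limited at -2 and 2. How spots were scanned, corrected for background and normalized is not given in the sources used here, and that the ratio is mouse over pool was read from the values. Ratios were rescaled to log2 and not normalized further, and the medians of the 10 arrays lay between -0.11 and 0.11. Signal over background is unknown, and the number of arrays limits the precision.

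Of 39556 probes, 23283 (58.9%) received 1 gene symbol from RefSeq tables of GRCm38.p6, and the other 16273 were not analysed here. The probes of 2869 genes with more than 1 were averaged, giving 19896 genes with no filter on level. limma 3.58.1 in R 4.3.3 fitted a mean for each of 8 groups over 40 fat arrays, with moderated variances and 2-sided p-values adjusted by Benjamini and Hochberg over all genes. Text and figures used Python 3.11.15 with numpy 2.4.6, pandas 2.3.3 and matplotlib 3.10.9. On simulated arrays with 19896 genes this fit recovered 68.7% of 67 genes changed by 0.5 log2. It recovered 91.0% of 67 changed by 1 and 97.0% of 66 changed by 2, with 10 false calls. The simulated noise was normal and independent between genes and arrays, and no other gene changed. Testis and epididymal transcripts shared by many genes were not simulated, so these rates do not carry over to the real arrays.

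The arrays, the 45 gene lists (1055 of 1149 entries measured) and the tests were chosen with earlier results of these data known, so list counts are descriptions and no list was tested. The named genes are the 12 largest rises and 12 largest falls that passed with and without mice 33 and 37 and did not overlap, up to 6 called members of each list with the largest change, 6 adipocyte genes, 6 in each direction for the strain and obesity differences, and 4 genes of each organ list. Of these, not all are printed, and placeholder symbols were left out. Kif2c and the count of H2B genes were chosen after their values were seen. Alternatives changed the arrays used, scaling, probe choice, gene filter, variance model and covariates. Those without the 5 mice carrying testis or epididymal transcripts and with an epididymal covariate were chosen after seeing the data.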

Additional observations from a re-analysis of the deposited data

Results flagged for a closer look

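Of 100 groups of 5 values checked (named genes and list means at each age), 13 held a mouse whose gap to its nearest neighbour exceeded Dixon's 95% critical value of 0.71 of the group's range. Chance flags about 5% of independent groups, but these groups share the same mice. Adam7 was named for its high values in mice 32 and 42, so the number flagged tests nothing. Mouse 32 stood apart at 10 weeks for Adam7 (2.05) and the epididymal list (0.97), and mouse 42 at 4 weeks for Adam7 (3.12) and the epididymal list (0.38). Mouse 33 stood apart at 10 weeks for Spc25 (-0.58), Gpnmb (-4.16) and the oxidative phosphorylation list (-0.28). Mouse 26 did so for H2-Aa (1.31) and Psmb9 (1.97), and mouse 37 for Camp at 4 weeks (2.84). Mouse 45 stood apart at 4 weeks for Psmb9 (0.08), Adipoq (0.04) and the fatty acid and triglyceride synthesis list (0.10).

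The age difference of several genes differed between lean and ob BTBR mice by the test of that difference. It was more positive in lean mice for Elovl6 (3.44), Rprml (3.27), C6 (3.23), Thrsp (2.55), Mogat1 (2.47), Acly (2.44), Fasn (2.07), Cox8b (1.70) and Cycs (0.80). More negative in lean mice were Gabrr2 (-2.43), Htr2b (-2.24), Tk1 (-2.22), Gpnmb (-2.15), Mmp12 (-2.07), Dnmt3a (-2.05), Mki67 (-2.02), Col1a1 (-1.77) and Mfap2 (-1.76). Between BTBR lean and B6 lean mice the difference was more positive in BTBR for Thbs2 (1.13), Hspb7 (1.10), Sfrp5 (1.09), H2-Bl (0.90), H2bc3 (0.77) and H2bc9 (0.76), and more negative for Car1 (-1.25), Tmem120a (-0.81) and Tmc6 (-0.55).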

How the results depend on the processing

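No paired analysis was possible because the mouse numbers of the 10wk and 4wk groups share none. The count of 3461 genes changed with age became 1626 with only the 10 arrays compared in the fit, 2254 over the more variable genes alone, 5966 with array weights and 1999 without mice 31, 32, 33, 37 and 42, and it was 2798 to 4254 when 1 lean BTBR mouse was left out. With the testis score as a covariate it was 3842, with 2113 higher and 1729 lower, which turns the split of the calls, as do centring each array on its median (1981 higher and 1762 lower), leaving out mouse 33 (1748 and 1577) and leaving out the 5 mice (1216 and 783). The 30 genes of the strain difference became 0 with only the groups compared, 203 with array weights, 16 without the 5 mice and 50 with testis and epididymal covariates. Leaving out 1 mouse gave 18 to 40 (BTBR) and 19 to 54 (B6). The 4130 genes of the obesity difference became 2643 over the more variable genes alone and 6507 with array weights, and 3836 to 4436 without 1 lean and 3623 to 4110 without 1 ob mouse.

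Among 111 named genes called with age, none turned its direction over 22 alternatives and 77 kept the call in all of them. Most were named for large changes in these same data, and some for also passing without mice 33 and 37, which is among the alternatives. These counts thus do not describe called genes in general. With only the arrays compared, Birc5, Uhrf1, Rrm2, Ngp, Cpt1b, Itln1, Psmb9, Timd4, H2-Q7, H2-M3 and Hbb-b1 did not pass. Of genes not called, Lep was -0.066 after quantile normalization. Cfd was 0.13 without mice 33 and 37, 0.077 without mouse 37 and 0.17 without the 5 mice, and leaving out 1 mouse gave -0.338 to 0.077. Fabp4 was -0.11 by its most variable probe, -0.12 with array weights, -0.03 without mouse 26, -0.02 without mouse 30, -0.01 without mouse 37 and -0.037 without mouse 42, and leaving out 1 mouse gave -0.037 to 0.078. The causes were not tested.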
